A study of Mus musculus with 12 samples.

Results

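Sciatic nerves of niacin-treated *Mtmr2* KO mice were compared with those of untreated wild-type controls. The comparison used 8 of the 12 RNA-seq libraries of the series, 4 of each of these groups, chosen by their labels, and every gene of the count table was tested on these 8 libraries alone. The other 4 libraries, from *Mtmr2* KO mice without treatment, serve only to set values side by side. The labels give their treatment as none, whereas the study's text speaks of vehicle where it compares niacin with them, and they are called untreated here after the labels. The sequencing was done to learn whether the treatment had an effect in the nerve.

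All mice were 1 month old (P30) and each group held 3 males and 1 female, with 1 sciatic nerve taken per mouse. Controls had the genotype *Mtmr2* wt/wt and are labelled as given no treatment, and the sources used here do not say whether they received vehicle. Treated mice were *Mtmr2* -/- on a 129/SvPas background and received niacin from P10 to P21 as i.p. injections of 120 mg/kg, followed by oral gavage of Niacin-SR, a slow-release form, at 960 mg/kg until P30. Genotype and treatment changed together in this comparison, so what belongs to the loss of *Mtmr2* and what to niacin cannot be told apart here. The libraries of the groups also differed without overlap in depth, base composition and mitochondrial share, as given below. A difference in library preparation therefore cannot be told apart from the groups either. The sources used here do not describe the structure of the null allele.

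MTMR2 is a phosphatase of endosomal phosphoinositides, and its loss causes a demyelinating Charcot-Marie-Tooth neuropathy with outfoldings of the myelin sheath. Myelinating Schwann cells build that sheath from lipids rich in cholesterol and galactolipids and from a few very abundant proteins, and axonal neuregulin acting on ErbB receptors sets its thickness. Niacin is a precursor of NAD, a ligand of the receptor HCAR2 on adipocytes and myeloid cells, and a proposed activator of the protease TACE (*Adam17*), which cleaves neuregulin.

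The control libraries held 26653828 to 28390961 counts and the niacin libraries 20983641 to 22935378, so that depth did not overlap between the groups. Levels are given as CPM, counts normalised to library size with scaling by the TMM method, in the order of libraries 4497, 4498, 4499 and 4500 for the controls and 4505, 4506, 4507 and 4508 for the niacin-treated nerves. Differences are log2 fold changes of niacin-treated *Mtmr2* KO over control with their SE and the Benjamini-Hochberg adjusted p of edgeR's quasi-likelihood test over all genes, and a gene is called higher or lower at an adjusted p under 0.05. Niacin libraries 4506 and 4507 stood apart from the rest in muscle transcripts. The summed level of 18 skeletal muscle markers was 119, 4209, 4205 and 162 CPM in the niacin-treated nerves and 112, 105, 55.0 and 115 CPM in the controls.

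*Mtmr2* (ENSMUSG00000031918, GRCm38 chr9:13748410-13806481 on the plus strand) was measured at 164, 132, 131 and 140.4 CPM in the controls and 67.9, 69.7, 69.5 and 76.8 CPM in the niacin-treated nerves. All treated nerves lay below all controls, at about the same level as one another, and transcript was left in each. The log2 fold change was -0.999 ± 0.10 (adjusted p = 0.00151, 4 libraries per group), and a two-sided exact permutation test on log2 CPM gave p = 0.0286, the smallest that 4 against 4 libraries allow. Without treatment the *Mtmr2* KO libraries were at 73.3, 87.7, 148 and 71.1 CPM, so that the library labelled *Mtmr2* null 4503 was at the control level.

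Of 16501 genes tested, 2682 rose and 2904 fell, which is 16.3% and 17.6% of the genes and 33.9% in either direction. At least a 2-fold difference was reached by 168 of the genes that rose and 151 of those that fell. Among all genes tested, the 4 treated nerves lay above the 4 controls for 15.6% and below them for 17.2%, and the median log2 fold change was 0.02. These calls rest on the 8 libraries being fitted alone. With all 12 libraries in 1 edgeR fit the same contrast called 0 genes (4254 at an unadjusted p under 0.05, smallest adjusted p = 0.0833), whereas on the 8 libraries DESeq2 called 6080 and limma-voom 7717. Without niacin libraries 4506 and 4507, edgeR called 4377 genes. With 1 library left out, 1569 to 2700 genes rose, the lower counts of 1569 to 1765 coming without niacin 4507 or control 4497, 4498 or 4499, and without niacin 4506 the count of falls of at least 2-fold was 285.

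The difference between the groups followed the base composition and length of the transcripts. The decile of genes with the lowest GC content had a median log2 fold change of 0.28, with 35.2% of them called higher and 1.58% lower. In the decile with the highest GC content the median was -0.36, with 4.81% called higher and 45.2% lower. Each library's gradient, the median log2 difference from the control mean of the low-GC decile minus that of the high-GC decile, was 0.652, 0.407, 0.574 and 0.728 in the niacin libraries and -0.0482 to 0.0619 in the controls (two-sided exact permutation p = 0.0286). Short transcripts leaned higher, with a median of 0.35 in the shortest decile and -0.13 in the longest, but the length gradients of the libraries overlapped, at 0.227 to 0.567 in the niacin libraries and -0.131 to 0.294 in the controls (two-sided exact permutation p = 0.0571). The controls' own mean is the reference of both gradients, so the controls centre near 0 by construction. Both permutation tests kept this reference, so they are not strictly exact. Untreated *Mtmr2* KO library 4502 had a GC gradient of 0.977, and the other 3 lay between -0.0178 and 0.113. When each library was corrected for GC content and length, 1371 of 16402 genes were called higher (8.36%) and 1270 lower (7.74%), and 2290 of the 5586 calls kept their direction and threshold. Whether composition and length caused the difference was not tested, and the corrected values are given below wherever they change a call. The share of counts in mitochondrially encoded genes also moved with the groups, at 3.5% to 5.43% in the niacin libraries and 2.1% to 2.8% in the controls.

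**Figure D1:**
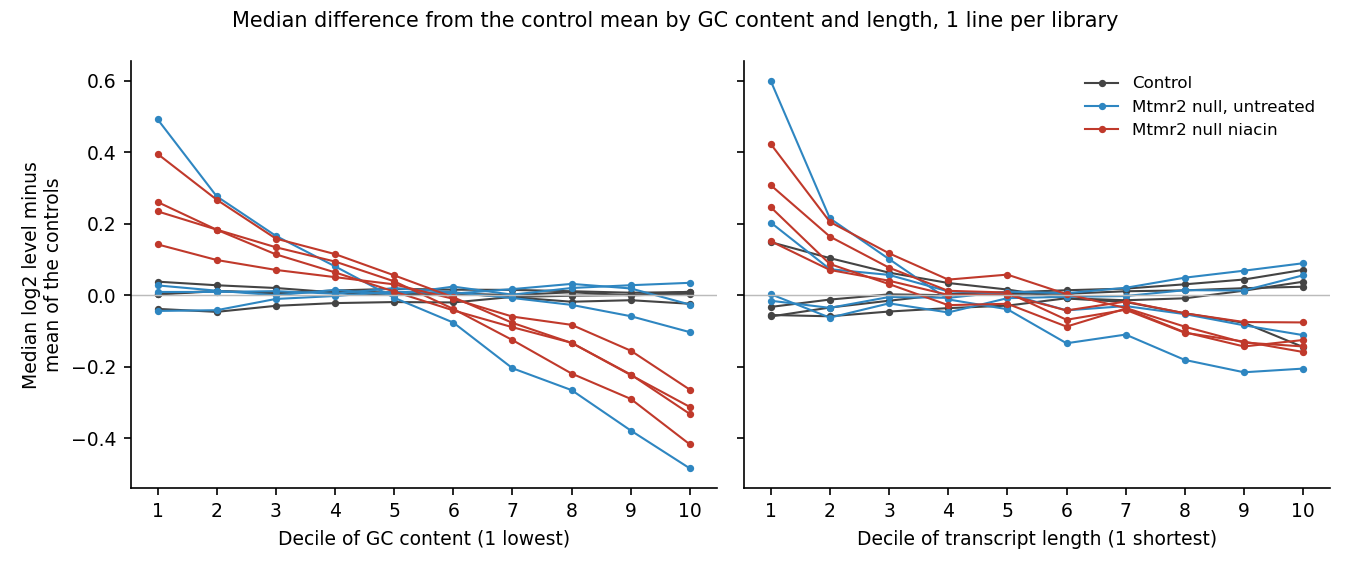
Median log2 difference of each library from the mean of the controls (vertical axis) in 10 equal groups of genes ordered by GC content (left) and by transcript length (right), 1 line per library. All 4 niacin libraries slope down from low to high GC content, with gradients of 0.407 to 0.728, while the controls, whose mean is the reference, stay near 0. Untreated library 4502 slopes down most, at 0.977.

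Ranked by p among genes without overlap, the 10 leading genes that rose had their highest fold in *Mrap2*, an accessory protein of melanocortin receptors, at 2.52, 1.83, 2.26 and 3.18 CPM in the controls and 10.2, 7.67, 7.49 and 5.78 CPM in the niacin-treated nerves (log2 fold change 1.67 ± 0.21, adjusted p = 0.00166). *Sfrp4*, a secreted Wnt antagonist, followed at 117, 132, 120.4 and 99.4 CPM in the controls and 290.1, 197, 267 and 308 CPM in the niacin-treated nerves (1.18 ± 0.14, adjusted p = 0.00158). Treated and control nerves did not overlap for either gene, which the ranking required. *S100a4*, a calcium-binding protein of fibroblasts and macrophages, was measured at 50.3, 43.6, 47.4 and 60.8 CPM in the controls and 113, 89.3, 101 and 102 CPM in the niacin-treated nerves (1.01 ± 0.11), and *Unc13c*, a synaptic vesicle priming factor, at 42.1, 40.9, 44.0 and 36.4 CPM in the controls and 90.3, 74.0, 72.5 and 86.7 CPM in the niacin-treated nerves (0.99 ± 0.10). The other genes that rose in this group were the small proteoglycan *Epyc* (0.94 ± 0.10), the chemokine *Ccl11* (0.97 ± 0.12), the non-coding RNA *A330069K06Rik* (0.97 ± 0.11), the glutathione transferase *Gsta4* (0.76 ± 0.09), the ciliary gene *Cep290* (0.74 ± 0.09) and the nuclear export factor *Nxt2* (0.63 ± 0.08, with a corrected adjusted p of 0.0589). Apart from *Nxt2*, these 10 genes were also called after the GC and length correction, at corrected log2 fold changes of 0.37 to 1.61.

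The 10 leading genes that fell included *Mtmr2* and had their largest fold in *Lrp5*, a Wnt co-receptor, at 52.6, 57.9, 51.5 and 46.1 CPM in the controls and 18.98, 27.3, 22.3 and 17.7 CPM in the niacin-treated nerves (log2 fold change -1.27 ± 0.13, adjusted p = 0.00151). *Nptxr*, the neuronal pentraxin receptor, was at 27.2, 24.7, 27.0 and 26.2 CPM in the controls and 10.9, 14.2, 11.6 and 9.14 CPM in the niacin-treated nerves (-1.20 ± 0.12). Non-overlap was required by the ranking here too, and the highest treated nerve was niacin 4506 for both genes. Others were *Tmem179* (-1.17 ± 0.12), the magnesium transport mediator *Cnnm3* (-0.90 ± 0.10), *Mfsd12*, a lysosomal cysteine transporter (-0.87 ± 0.10), *Zfp362* (-0.84 ± 0.09), the heparan sulfate endosulfatase *Sulf2* (-0.83 ± 0.09), the chromatin remodelling subunit *Smarcd1* (-0.80 ± 0.08) and the stress-activated transcription factor *Atf6b* (-0.73 ± 0.07). All of these were also called after the correction, at corrected values from -1.07 in *Mtmr2* to -0.37. By size, the large falls among non-overlapping genes included *Mall* (-1.81 ± 0.27, 4.93 to 8.08 CPM in the controls and 1.10 to 2.78 CPM in the niacin-treated nerves), *Olfm2* (-1.81 ± 0.28), *Plvap*, the diaphragm protein of fenestrated endothelium (-1.69 ± 0.36), and *Susd5* (-1.65 ± 0.40).

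Myelin genes did not move as a block. Of 18 tested myelin protein genes 1 rose and 6 fell (median log2 fold change -0.10), and 0 and 4 did after the correction (median -0.01). Leaving out niacin library 4507 left 3 that fell. The list holds *Cldn5*, which is also an endothelial gene and is described with that list. It also holds *Fa2h*, an enzyme of myelin lipids described below, and both genes are among the 6 that fell. *Pmp22* and *Mbp*, which encode a membrane and a cytoplasmic protein of compact myelin, spanned 22958 to 28501 CPM in the controls and 25218 to 34360.3 CPM in the niacin-treated nerves, and 21789.8 to 27369.9 CPM in the controls and 22329.6 to 34138 CPM in the niacin-treated nerves. Both overlapped between groups and neither passed the test, at 0.11 ± 0.17 (adjusted p = 0.667) and 0.14 ± 0.18 (adjusted p = 0.591).

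*Fa2h*, the fatty acid hydroxylase of myelin galactolipids, was at 816, 709, 729 and 604 CPM in the controls and 402, 502, 293 and 218 CPM in the niacin-treated nerves and fell (log2 fold change -1.01 ± 0.22, adjusted p = 0.00605). The groups did not overlap. *Galc* and *Arsa*, the lysosomal enzymes that degrade galactolipids, also fell (-0.63 ± 0.14 and -0.60 ± 0.13), whereas *Ugt8a*, which makes galactosylceramide, was at 0.01 ± 0.15 (adjusted p = 0.974). The ceramide enzymes *Asah1* (0.41 ± 0.09) and *Degs1* (0.33 ± 0.10) rose, and these 2 calls and that of *Arsa* ended with the correction (corrected adjusted p = 0.117, 0.294 and 0.112). The tetraspanin *Cd9* was the myelin gene that rose (0.36 ± 0.11), with a corrected log2 fold change of 0.01 (adjusted p = 0.976). *Degs1* and *Cd9* were not called in 4 and 6 of the 8 fits that left out 1 library (adjusted p up to 0.0979 and 0.132).

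Schwann cell transcription factors leaned lower, with 2 of 18 tested genes higher and 10 lower (median -0.37), against 4 lower after the correction. *Sox10*, the factor that defines the lineage, was at 496, 508, 503 and 417 CPM in the controls and 293, 359, 275 and 258 CPM in the niacin-treated nerves. All treated nerves were below all controls (-0.70 ± 0.12, adjusted p = 0.00310), but the corrected value of -0.29 was not called (adjusted p = 0.0872). *Pou3f2*, the POU factor that acts beside *Pou3f1* at the promyelinating stage, was at 13.3, 12.3, 12.2 and 12.6 CPM in the controls and 7.27, 6.17, 6.79 and 6.54 CPM in the niacin-treated nerves, and its difference was as large with the correction (-0.91 ± 0.10 and -0.93, corrected adjusted p = 0.00385). *Pou3f1* itself fell (-0.80 ± 0.16, corrected -0.30 with adjusted p = 0.174), as did the HLH inhibitor *Id4* (-0.81 ± 0.16) and *Srebf2* (-0.59 ± 0.14, corrected adjusted p = 0.412). *Zeb2* and *Id2* rose in small steps (0.32 ± 0.11 and 0.31 ± 0.09) and neither was called after the correction (adjusted p = 0.174 and 0.605), and the count that rose was 0 without control 4497 or 4498 or 4499 or niacin 4505 or 4507 and 1 without control 4500 or niacin 4506 or 4508. *Zeb2* and *Id2* were not called in 7 and 6 of the 8 fits that left out 1 library (adjusted p up to 0.145 and 0.112).

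None of the 15 tested genes of neuregulin signalling and its proteases rose and 5 fell (3 without control 4497, 4498 or 4499 or niacin 4507). Of all genes 16.3% rose and 17.6% fell. After the correction 1 gene of the list was lower, a share near the 7.74% of all genes. That gene was *Erbb2*, the signalling subunit of the receptor pair, at 99.8, 106, 94.8 and 87.3 CPM in the controls and 53.9, 72.1, 54.3 and 49.9 CPM in the niacin-treated nerves (log2 fold change -0.75 ± 0.12, adjusted p = 0.00247; corrected -0.35, adjusted p = 0.0210). Treated nerves were all below the controls. *Erbb3*, which binds neuregulin, fell by less and its groups overlapped (-0.45 ± 0.13), and so did *Rhbdf2*, which carries TACE to the cell surface (-0.49 ± 0.13), and *Bace1*, the protease that activates neuregulin (-0.40 ± 0.12). These 3 calls ended with the correction (adjusted p = 0.148, 0.446 and 0.133). *Adam17* transcript, which encodes TACE, was at 113, 94.7, 114 and 100.4 CPM in the controls and 122, 109, 103 and 98.2 CPM in the niacin-treated nerves, and the groups overlapped fully (0.03 ± 0.10, adjusted p = 0.831). *Nrg1* was near the lower limit of detection at 0.593 to 1.21 CPM in the controls and 1.20 to 2.02 CPM in the niacin-treated nerves (0.61 ± 0.28, adjusted p = 0.116). *Erbb3* and *Bace1* were not called in 5 and 4 of the 8 fits that left out 1 library (adjusted p up to 0.0778 and 0.0766).

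Of 20 genes of the Schwann cell basal lamina and its receptors 0 rose and 11 fell (8 without niacin 4506 and 4507), with a median of -0.49, and 2 were lower after the correction, a share near the 7.74% of all genes. *Dag1*, dystroglycan, the laminin receptor of Schwann cells, was at 1523, 1146, 1289.5 and 1020.1 CPM in the controls and 657, 759.7, 502 and 344 CPM in the niacin-treated nerves (-1.14 ± 0.22, adjusted p = 0.00427, corrected -0.89). Perlecan (*Hspg2*) was at -0.98 ± 0.17 and laminin alpha 5 (*Lama5*) at -0.89 ± 0.23, and for both the call ended with the correction (adjusted p = 0.0620 and 0.215).

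At the node and paranode 2 of 20 genes rose, below the 16.3% of all genes, and 6 fell, above their 17.6%. *Kcna1*, a juxtaparanodal potassium channel, was at 445, 454, 398 and 352 CPM in the controls and 229, 273, 207 and 216 CPM in the niacin-treated nerves, without overlap (-0.83 ± 0.12, adjusted p = 0.00218, corrected -0.75). The internodal adhesion molecule *Cadm3* fell (-0.74 ± 0.14), and neurofascin (*Nfasc*) fell (-0.67 ± 0.16) but was not called after the correction (adjusted p = 0.127). The genes that rose were the axonal *Sptbn4* (1.14 ± 0.28, 0.665 to 1.02 CPM in the controls and 1.25 to 2.60 CPM in the niacin-treated nerves) and *Cntnap2* (1.12 ± 0.35, 0.245 to 0.629 CPM in the controls and 0.717 to 0.970 CPM in the niacin-treated nerves), both at low levels, and the count that rose was 1 without control 4497 or 4498 or 4500 or niacin 4505 or 4506 or 4507. Of the non-myelinating and repair genes, *Scn7a*, a sodium channel of non-myelinating Schwann cells, rose (0.64 ± 0.11, 271 to 331 CPM in the controls and 421 to 559 CPM in the niacin-treated nerves). *Cntnap2* was not called in 6 of the 8 fits that left out 1 library (adjusted p up to 0.0870).

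**Figure D2:**
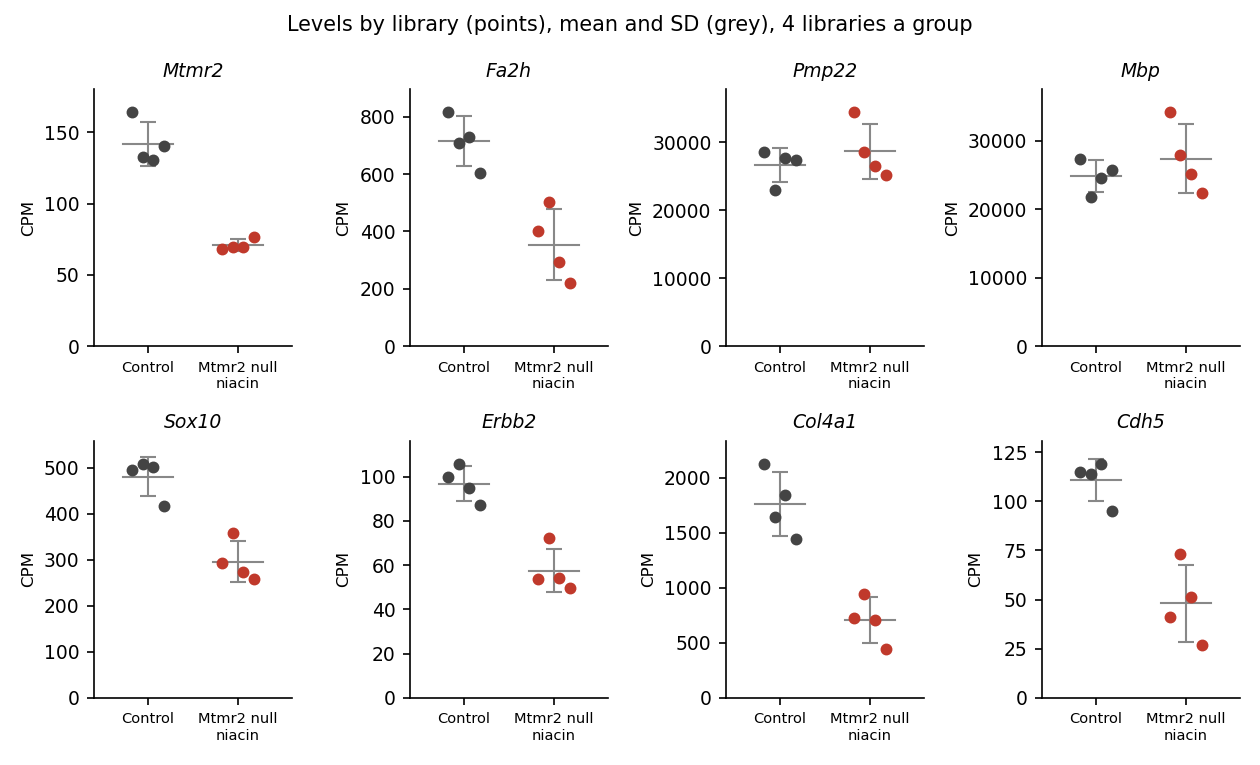
CPM of 8 genes (vertical axes) in the 4 control and 4 niacin-treated *Mtmr2* null libraries, with each point a library and the grey lines the mean and SD. *Mtmr2*, *Fa2h*, *Sox10*, *Erbb2*, *Col4a1* and *Cdh5* are lower in all treated nerves than in all controls, while *Pmp22* and *Mbp* overlap.

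Cholesterol synthesis genes leaned higher. Of 25 tested genes 10 rose and 2 fell (median log2 fold change 0.28), and 5 and 1 did after the correction. The count that rose was 4 without control 4498, 5 without control 4499 and 6 without niacin 4505 or 4507. *Msmo1*, the sterol methyl oxidase, was at 331, 271, 282 and 336 CPM in the controls and 606, 411, 469.7 and 474 CPM in the niacin-treated nerves (0.68 ± 0.13, adjusted p = 0.00420, corrected 0.55). *Fdft1*, squalene synthase, was at 241, 215, 202 and 241 CPM in the controls and 408, 300.2, 312 and 341 CPM in the niacin-treated nerves (0.60 ± 0.12, adjusted p = 0.00438, corrected 0.72). In both genes niacin 4505 was highest and all treated nerves exceeded all controls. *Idi1*, isopentenyl diphosphate isomerase, also rose (0.58 ± 0.17), but its call ended with the correction (adjusted p = 0.158). The entry enzyme *Hmgcs1* overlapped between groups and did not pass the test (0.42 ± 0.19, adjusted p = 0.106). *Idi1* lost its call without control 4498 or 4499 (adjusted p = 0.0692 to 0.0770).

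Against this trend, *Scap*, the sterol sensor that escorts SREBP proteins, was at 110.2, 103, 101 and 95.7 CPM in the controls and 56.5, 74.3, 58.4 and 49.1 CPM in the niacin-treated nerves and fell with and without the correction (-0.78 ± 0.12 and -0.37). The promoters of the pathway are shown for 3 genes because sterol genes are known to share a CCAAT box, bound by NF-Y, beside their sterol response elements. Each window is 60 bases upstream of or reaching the RefSeq transcription start on GRCm38.p6, 5′ to 3′ on the gene's strand, with CCAAT or its reverse complement ATTGG in capitals.
Msmo1 (chr8:64733602-64733661, minus strand): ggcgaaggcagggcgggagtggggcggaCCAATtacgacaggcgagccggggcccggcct
Idi1 (chr13:8885546-8885605, plus strand): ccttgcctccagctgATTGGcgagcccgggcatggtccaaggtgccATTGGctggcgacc
Hmgcs1 (chr13:119690278-119690337, plus strand): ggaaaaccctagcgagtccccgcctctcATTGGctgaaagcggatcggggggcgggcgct
In the 250 bases before the start, CCAAT on either strand occurred in 16 of the 18 sterol genes matched by symbol and in 33.8% of all 32851 RefSeq promoters. A sterol gene was counted if any of its promoters had the motif, whereas the share is over single promoters, so the figures are in unlike units. *Idi1* has 2 copies in the window, and *Msmo1* and *Hmgcs1* have 1 each. A match describes the letters only.

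Of 18 genes of fatty acid synthesis 1 rose and 2 fell (5 without niacin 4505). Both shares were below the 16.3% and 17.6% of all genes, and 0 rose or fell after the correction. *Srebf1*, the master factor of fatty acid synthesis, was at 197, 224, 169 and 157 CPM in the controls and 91.3, 139, 135 and 132 CPM in the niacin-treated nerves (-0.59 ± 0.15, adjusted p = 0.0123), and its corrected value of -0.19 did not pass (adjusted p = 0.325). The citrate carrier *Slc25a1* fell (-0.55 ± 0.13, corrected adjusted p = 0.0923) and the elongase *Elovl5* rose (0.34 ± 0.08, corrected adjusted p = 0.119). *Scd1* and *Fasn* varied widely among the controls alone, over 3230.1 to 7362 CPM and 817 to 3223 CPM. In the treated nerves they lay at 2148 to 5826 CPM and 548 to 1576 CPM, within or across those ranges, and neither passed the test (-0.26 ± 0.32 and -0.84 ± 0.42, adjusted p = 0.559 and 0.145). *Elovl5* lost its call without niacin 4507 (adjusted p = 0.0620).

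Genes of lipid storage and release leaned lower. In the lipid droplet and lipolysis list 1 of 15 genes rose and 8 fell (median -0.59), with 4 lower after the correction, and 4 without control 4498 and 5 without control 4497 or niacin 4507. *Lipe*, hormone-sensitive lipase, was at 186, 195, 145 and 152 CPM in the controls and 45.2, 103, 87.7 and 113 CPM in the niacin-treated nerves. Niacin 4505 was lowest and no treated nerve reached a control (-0.96 ± 0.23, adjusted p = 0.00961, corrected -0.69). *Pnpla2*, adipose triglyceride lipase, fell alongside (-0.77 ± 0.17, corrected -0.51). The monoacylglycerol lipase *Mgll* (-0.70 ± 0.15) and the droplet coat *Plin4* (-0.94 ± 0.28) lost their calls with the correction (adjusted p = 0.0833 and 0.169), and *G0s2*, the inhibitor of *Pnpla2*, was the gene that rose (0.47 ± 0.15). *Pck1*, the glyceroneogenesis enzyme of fat cells, was at 413, 292, 335 and 354 CPM in the controls and 151, 199, 247 and 187 CPM in the niacin-treated nerves, again without overlap (-0.83 ± 0.15, adjusted p = 0.00373, corrected -0.72). *Plin4* lost its call without control 4498 (adjusted p = 0.0572). *G0s2* was not called in 5 of the 8 fits that left out 1 library (adjusted p up to 0.0908).

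White adipocyte markers went both ways. Of 15 tested markers 2 rose and 3 fell, shares near those of all genes (16.3% higher and 17.6% lower). The summed level was 4746 to 6179 CPM in the controls and 4587 to 8498 CPM in the treated nerves, which overlap. The defining *Fabp4* was at 709 to 990.2 CPM in the controls and 542 to 1435 CPM in the niacin-treated nerves (0.20 ± 0.24, adjusted p = 0.563). *Cebpa*, a factor of adipocyte differentiation, fell (-0.65 ± 0.22, corrected adjusted p = 0.423) and the adipokine *Retn* rose (0.83 ± 0.26, corrected adjusted p = 0.139), while *Sncg*, shared by adipocytes and neurons, rose with and without the correction (0.52 ± 0.11 and 0.46). The part of fat cells in the lipid results was not tested, and in bulk nerve fewer cells of a type and less RNA per cell cannot be told apart. *Ucp1*, the uncoupling protein of brown fat, ran from 0.175 to 5.08 CPM in the controls to 0 to 0.4930 CPM in the treated nerves, with overlap (-3.60 ± 1.09). *Cebpa*, *Retn* and *Ucp1* were not called in 4, 4 and 4 of the 8 fits that left out 1 library (adjusted p up to 0.111, 0.0836 and 0.0900).

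The niacin receptor gene *Hcar2* (ENSMUSG00000045502, GRCm38 chr5:123863570-123865499 on the minus strand) was at 6.34, 4.50, 5.11 and 6.65 CPM in the controls and 2.29, 2.03, 2.74 and 3.81 CPM in the niacin-treated nerves. All treated nerves were lower (-1.05 ± 0.22, adjusted p = 0.00512, corrected -1.13). *Hcar1*, the neighbouring lactate receptor of adipocytes, was at 23.99, 22.4, 18.2 and 21.8 CPM in the controls and 6.23, 13.3, 7.53 and 9.59 CPM in the niacin-treated nerves and fell as far (-1.23 ± 0.20, adjusted p = 0.00251, corrected -1.16). Without treatment, *Mtmr2* KO libraries ran over 0.788 to 8.58 CPM for *Hcar2* and 2.62 to 13.4 CPM for *Hcar1*. In the prostaglandin part of the list, the receptor *Ptgfr* rose (0.53 ± 0.11, corrected 0.44), whereas the phospholipase *Pla2g4a* (0.46 ± 0.14) rose and lost its call with the correction (adjusted p = 0.0942). The list as a whole had 3 of 18 genes higher (1 without control 4497 or 4498 or 4499 or niacin 4505 or 4507) and 2 lower (4 without control 4497). The share that rose was near the 16.3% of all genes, and the share that fell was below their 17.6%. *Pla2g4a* was not called in 6 of the 8 fits that left out 1 library (adjusted p up to 0.0742).

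Of 22 tested genes of NAD synthesis and use, 4 rose and 3 fell, a share near that of all genes (16.3% higher and 17.6% lower). Those that rose include *Nampt*, the rate-limiting enzyme of the salvage route, at 94.0, 102, 91.0 and 93.5 CPM in the controls and 113, 112, 129.9 and 136 CPM in the niacin-treated nerves (0.37 ± 0.09, adjusted p = 0.0113), which was not called after the correction (0.19, adjusted p = 0.121). *Qprt*, of the route from tryptophan, rose with and without it (0.51 ± 0.13 and 0.64), and *Nnmt*, which methylates nicotinamide, rose with overlapping groups (0.53 ± 0.17, corrected adjusted p = 0.235). *Naprt*, which takes up niacin itself into the NAD pathway, was at 22.3, 20.7, 19.8 and 20.9 CPM in the controls and 16.8, 19.5, 15.7 and 16.8 CPM in the niacin-treated nerves, a small fall (-0.28 ± 0.09, adjusted p = 0.0361) with a corrected value of -0.05 (adjusted p = 0.770). The axonal NAD synthase *Nmnat2*, which protects axons, was at 13.9, 14.1, 13.9 and 15.3 CPM in the controls and 9.52, 10.1, 8.93 and 8.74 CPM in the niacin-treated nerves and fell under both (-0.62 ± 0.10, adjusted p = 0.00250, corrected -0.50), as did the NAD consumer *Parp1* (-0.62 ± 0.11, corrected -0.46). The count that rose was 2 without control 4498 or 4499 or niacin 4507. *Nnmt* and *Naprt* were not called in 5 and 7 of the 8 fits that left out 1 library (adjusted p up to 0.121 and 0.107).

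Transcripts of ribosomes and of oxidative phosphorylation were mostly higher. Of 48 cytosolic ribosomal protein genes 46 rose and 0 fell (median 0.71), and 41 were called after the correction (median 0.53). *Rplp1*, of the ribosomal stalk, was at 596, 581, 636 and 819 CPM in the controls and 1040.3, 880.3, 1159 and 1272 CPM in the niacin-treated nerves (0.73 ± 0.15, adjusted p = 0.00497). No treated nerve overlapped a control, and control 4500 was the highest control. *Rps25* (0.82 ± 0.14) and *Rpl37* (0.82 ± 0.15) are further examples. These genes have many processed copies in the genome, so that reads can be shared between them. All 13 mitochondrially encoded genes tested rose (median 0.81), but 1 was called after the correction (median 0.25). *mt-Co1*, a catalytic subunit of cytochrome oxidase, spanned 7934 to 9959 CPM in the controls and 13209 to 18574 CPM in the niacin-treated nerves (0.86 ± 0.17, corrected adjusted p = 0.0729).

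Nuclear genes of oxidative phosphorylation were mostly higher too, with 24 of 33 called higher and 3 lower (14 and 2 after the correction). The short subunits *Cox6c* (0.70 ± 0.14) and *Ndufa2* (0.67 ± 0.11) rose, and *Sdhc* (-0.37 ± 0.09), *Uqcrc1* (-0.45 ± 0.11) and *Cyc1* (-0.31 ± 0.08, corrected adjusted p = 0.656) fell. *Atp5b*, a catalytic subunit of ATP synthase, did not pass the test (0.08 ± 0.10, adjusted p = 0.564). In glycolysis 9 of 23 genes rose and 3 fell, and 1 rose and 5 fell without niacin 4506 and 4507. *Eno3*, the muscle enolase, was at 11.01, 11.6, 8.66 and 11.5 CPM in the controls and 9.92, 166, 209 and 15.0 CPM in the niacin-treated nerves, high in those 2 libraries alone (3.22 ± 0.81, with 0.20 and an adjusted p of 0.465 without them). *Gapdh* was at 667, 619, 615 and 661 CPM in the controls and 919, 1021, 1168 and 948 CPM in the niacin-treated nerves (0.66 ± 0.11, adjusted p = 0.00262), with a log2 fold change of 0.53 without them (adjusted p = 0.0267). *Hk1* and *Pfkl*, which open the pathway, fell (-0.61 ± 0.18 and -0.55 ± 0.14) but not after the correction (adjusted p = 0.284 and 0.138). *Hk1* was not called in 4 of the 8 fits that left out 1 library (adjusted p up to 0.0654).

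Part of the matrix genes fell. None of 30 collagen genes rose and 17 fell (10 without niacin 4506 and 4507), with a median of -0.57, against 1 higher and 5 lower after the correction. *Col4a1*, a basement membrane collagen of vessels and Schwann cells, was at 2123, 1638, 1839 and 1446 CPM in the controls and 725, 947, 705 and 441 CPM in the niacin-treated nerves (-1.32 ± 0.21, adjusted p = 0.00247, corrected -0.86). *Col4a2*, its partner chain, moved alike (-1.33 ± 0.22, corrected -0.79), and all treated nerves were below all controls for both. *Col18a1* fell as well (-1.005 ± 0.13, corrected -0.48). The fibrillar *Col1a1* fell (-0.96 ± 0.23) and lost its call with the correction (adjusted p = 0.204), while *Col3a1* overlapped between groups (-0.14 ± 0.27, adjusted p = 0.713).

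Of 25 genes of elastic fibres and matrix assembly 3 rose and 10 fell (5 without niacin 4506 and 4507), against 3 and 2 after the correction. Those that rose were the small proteoglycan *Lum*, at 766, 565, 694 and 716 CPM in the controls and 1459, 990.5, 1177 and 1237 CPM in the niacin-treated nerves (0.83 ± 0.14, adjusted p = 0.00289, corrected 0.56), *Dcn* (0.68 ± 0.13, corrected 0.47) and the microfibril gene *Mfap5* (0.34 ± 0.10, corrected adjusted p = 0.0545). *Lox*, which crosslinks collagen and elastin, fell without overlap at 889, 886, 921 and 707 CPM in the controls and 459, 571, 346 and 297 CPM in the niacin-treated nerves (-1.02 ± 0.19, adjusted p = 0.00373, corrected -1.09). Elastin itself (*Eln*) fell from 419 to 606 CPM to 225 to 354 CPM (-0.87 ± 0.15), with a corrected adjusted p of 0.0935. Among perineurial and endoneurial fibroblast markers 5 of 13 rose and 3 fell: *Ccl11* and *Lypd2* rose (0.97 ± 0.12 and 0.80 ± 0.15) and *Sfrp5*, *Itgb4* and *Sox9* fell (-0.98 ± 0.18, -0.85 ± 0.17 and -0.60 ± 0.12), in opposite directions within the list, and the call of *Itgb4* ended with the correction (adjusted p = 0.0779). The count that rose was 2 without control 4498 or niacin 4507 and 3 without control 4497. *Mfap5* was not called in 5 of the 8 fits that left out 1 library (adjusted p up to 0.0968).

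Endothelial markers leaned lower in the treated nerves. None of 14 endothelial and pericyte markers rose and 8 fell (median -0.47), and 6 did after the correction. Their summed level was 1301, 1315, 1368 and 1297 CPM in the controls and 778, 1076, 1018 and 810.5 CPM in the treated nerves, so that all treated nerves were lower. *Cdh5*, VE-cadherin, was at 115, 114, 119 and 95.0 CPM in the controls and 41.0, 73.3, 51.2 and 27.1 CPM in the niacin-treated nerves (-1.20 ± 0.23, adjusted p = 0.00427, corrected -1.07). *Cldn5*, the tight junction claudin of the blood-nerve barrier, was at 78.0, 76.7, 93.4 and 104 CPM in the controls and 25.6, 44.9, 50.7 and 26.04 CPM in the niacin-treated nerves (-1.25 ± 0.21, corrected -1.10), and the VEGF receptor *Flt1* fell by a similar step (-1.23 ± 0.28). The pericyte gene *Rgs5* did not pass (-0.13 ± 0.13, adjusted p = 0.488). Among 10 vascular smooth muscle markers 3 fell, including *Lmod1* (-1.44 ± 0.30, 8.15 to 17.2 CPM in the controls and 2.64 to 5.95 CPM in the niacin-treated nerves). The part of vessel content in the matrix results was not tested.

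Of 9 markers of myelinating Schwann cells 0 rose and 3 fell (1 without niacin 4507), with a median of -0.17 that was 0.02 after the correction. Their summed level was 62751, 49318, 54621 and 50227 CPM in the controls. In the treated nerves it was 38488, 38477, 27610 and 20107 CPM, so that all treated nerves were lower. These sums weigh the most abundant members most and were not corrected for GC content and length. *Prx*, periaxin, an abundant marker, spanned 5567 to 6747 CPM in the controls and 3564 to 5853 CPM in the niacin-treated nerves and overlapped (-0.36 ± 0.17, adjusted p = 0.129). The gliomedin gene *Gldn* and the claudin *Cldn19* fell (-0.63 ± 0.12 and -0.55 ± 0.15), and *Cldn19* was not called after the correction (adjusted p = 0.155). *Cldn19* was not called in 3 of the 8 fits that left out 1 library (adjusted p up to 0.0697).

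Sensory neuron markers leaned higher, and whether axons or other cells of the nerve gave these transcripts was not tested. Of 11 tested markers 7 rose and 0 fell (median 0.72, 0.79 after the correction, with 6 called), and 4 without control 4497 or 4499. *Nefm*, the medium neurofilament, was at 6.82, 9.91, 8.84 and 10.3 CPM in the controls and 15.0, 15.0, 14.5 and 19.3 CPM in the niacin-treated nerves (0.83 ± 0.15, adjusted p = 0.00334, corrected 1.18). Peripherin (*Prph*) followed at 8.93 to 11.9 CPM in the controls and 16.2 to 21.4 CPM in the niacin-treated nerves (0.72 ± 0.13, corrected 0.99), and the neuropeptide gene *Calca* rose at low levels (0.804 to 1.01 CPM in the controls and 1.10 to 2.29 CPM in the niacin-treated nerves, 1.12 ± 0.27). For these 3 genes no treated nerve overlapped a control. *Uchl1*, an abundant neuronal marker, did not pass the test (0.02 ± 0.12, adjusted p = 0.911).

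**Figure D3:**
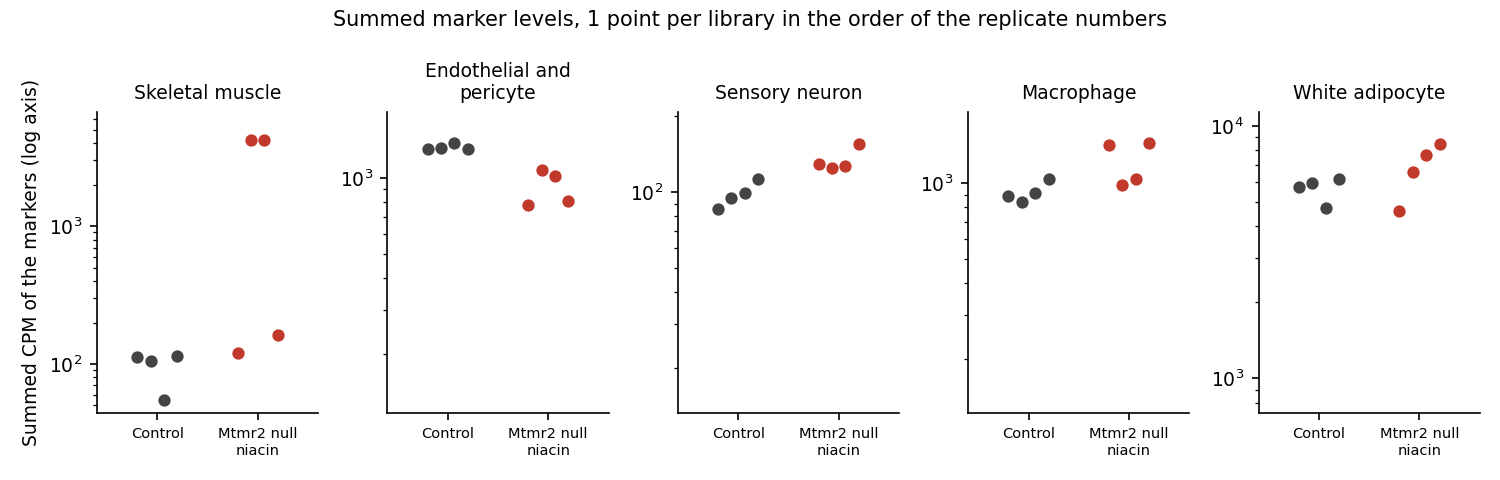
Summed CPM of 5 marker lists (vertical axes, log scale) in each control and niacin-treated library, points in the order of the library numbers. Skeletal muscle transcripts are high in niacin libraries 4506 and 4507 alone, endothelial sums are lower in all treated nerves and sensory neuron sums higher, and white adipocyte sums overlap.

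The largest fold changes in the comparison belonged to skeletal muscle. Of 15 tested muscle markers 14 rose (median 4.61), and 4 did when niacin 4506 and 4507 were left out (median 0.74). *Ckm*, muscle creatine kinase, was at 3.45, 3.58, 0.703 and 2.97 CPM in the controls and 4.43, 257, 277 and 6.36 CPM in the niacin-treated nerves (5.67 ± 1.25, adjusted p = 0.00668). *Myh1*, a fast myosin heavy chain, was at 0.482, 0.621, 0.666 and 0.455 CPM in the controls and 1.84, 18.1, 171 and 1.88 CPM in the niacin-treated nerves (6.42 ± 1.47). Only libraries 4506 and 4507 were far from the controls. The remaining genes with the largest rise, *Ampd1* (5.34 ± 1.14), *Mybpc2* (5.08 ± 1.15) and *Atp2a1* (4.95 ± 1.08), are muscle genes too. Without the 2 libraries *Ckm* had a log2 fold change of 0.99 (adjusted p = 0.136) and *Myh1* of 1.72 (adjusted p = 0.00734).

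Immune genes moved in part. Of 15 macrophage markers 7 rose and 1 fell (5 and 0 after the correction), but the count that rose was 1 without control 4498, 2 without control 4499, 3 without control 4497 and 4 without niacin 4508. The list also counts *Ccl2*, the monocyte chemokine, which is a secreted signal. It was at 3.19, 2.41, 3.48 and 4.83 CPM in the controls and 10.4, 7.98, 10.8 and 20.5 CPM in the niacin-treated nerves, highest in niacin 4508 and without overlap (1.84 ± 0.29, adjusted p = 0.00250, corrected 1.37). *Adgre1*, the F4/80 antigen, rose with overlapping groups (0.60 ± 0.17, 25.7 to 32.1 CPM in the controls and 31.9 to 57.4 CPM in the niacin-treated nerves), and *Cx3cr1* fell (-0.42 ± 0.12, corrected adjusted p = 0.0925). The summed level of the markers overlapped, at 839.9 to 1034 CPM in the controls and 979 to 1437 CPM in the treated nerves. Of 7 tested MHC class II genes the chains *H2-Aa* and *H2-Eb1* rose (0.54 ± 0.15 and 0.44 ± 0.15) and the invariant chain *Cd74*, *H2-Ab1* and *H2-DMa* fell (-0.53 ± 0.16, -0.46 ± 0.15 and -0.67 ± 0.19), so partner chains of 1 complex went opposite ways, and *H2-Aa* alone was called after the correction (adjusted p = 0.101, 0.0601, 0.0833 and 0.0752 for the other 4). *Cx3cr1* lost its call without control 4497 (adjusted p = 0.0538). *H2-Aa* lost its call without control 4497 or 4498 (adjusted p = 0.0581 to 0.0626). *H2-DMa* lost its call without control 4499 or niacin 4507 (adjusted p = 0.0555 to 0.0558). *Adgre1*, *H2-Eb1*, *Cd74* and *H2-Ab1* were not called in 3, 5, 5 and 6 of the 8 fits that left out 1 library (adjusted p up to 0.0602, 0.112, 0.0785 and 0.122).

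Among 23 interferon-stimulated genes 7 rose and 1 fell (4 and 0 after the correction), with 3 without niacin 4507 and 4 without control 4498. *Gbp2* was at 21.3 to 28.4 CPM in the controls and 30.9 to 43.3 CPM in the niacin-treated nerves (0.62 ± 0.12, corrected 0.53) and *Ifit3* at 12.2 to 22.1 CPM in the controls and 22.4 to 32.3 CPM in the niacin-treated nerves (0.72 ± 0.17, corrected 0.52), both without overlap. Of 21 complement genes 7 rose and 2 fell. *Serping1*, the inhibitor of the first complement protease, was at 501, 531, 601 and 561 CPM in the controls and 932, 749, 900.3 and 962 CPM in the niacin-treated nerves (0.69 ± 0.11, adjusted p = 0.00263, corrected 0.64). *C3* and *C4b* fell (-0.56 ± 0.19 and -0.42 ± 0.11), and both calls ended with the correction (adjusted p = 0.239 and 0.598). The count that rose was 3 without control 4498 and 4 without control 4497 or niacin 4505. *C4b* lost its call without niacin 4507 (adjusted p = 0.0506). *C3* was not called in 4 of the 8 fits that left out 1 library (adjusted p up to 0.0972).

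Of 19 core clock genes 3 rose and 3 fell, a share near that of all genes (16.3% higher and 17.6% lower). *Arntl*, which encodes the activator BMAL1, was at 5.93, 8.52, 8.36 and 10.5 CPM in the controls and 2.59, 4.06, 4.14 and 2.51 CPM in the niacin-treated nerves (-1.32 ± 0.22, adjusted p = 0.00275, corrected -1.29), and *Npas2*, a paralog of CLOCK and partner of BMAL1, was at 2.00, 2.12, 2.44 and 2.38 CPM in the controls and 1.05, 0.573, 1.26 and 0.986 CPM in the niacin-treated nerves (-1.21 ± 0.25, corrected -1.04). All treated nerves were lower in both. *Ciart*, a repressor of CLOCK-BMAL1 that is itself among its outputs, was at 11.1, 8.92, 7.29 and 8.88 CPM in the controls and 17.5, 17.5, 13.3 and 21.7 CPM in the niacin-treated nerves (0.95 ± 0.16, adjusted p = 0.00292, corrected 0.93), higher in every treated nerve. The repressor *Nr1d1* fell (-0.65 ± 0.14) while its relative *Nr1d2* rose (0.38 ± 0.08, corrected adjusted p = 0.0531). The sources used here do not give the time of day at which nerves were taken.

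A stretch of the *Ciart* promoter is shown because CLOCK-BMAL1 is known to bind the E-box CACGTG. The window of 60 bases lies on the minus strand of GRCm38.p6 upstream of the RefSeq start, 5′ to 3′, with CACGTG in capitals.
Ciart (chr3:95882240-95882299, minus strand): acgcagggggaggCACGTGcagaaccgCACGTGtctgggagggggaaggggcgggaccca
The window holds 2 copies. CACGTG, which reads the same on both strands, occurred in the 250 bases before the start of 5 of 16 matched clock genes and of 6.0% of all 32851 RefSeq promoters. Here too a gene was counted if any of its promoters had the motif, and the share is over single promoters. As before, a match describes the letters only.

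Of 19 glucocorticoid response genes 3 rose and 1 fell, no more than the 16.3% and 17.6% of all genes, and 5 rose after the correction. *Tsc22d3*, the glucocorticoid-induced leucine zipper, was at 223, 224, 228 and 217 CPM in the controls and 386, 455, 260.4 and 412 CPM in the niacin-treated nerves. Niacin 4507 was lowest of the treated nerves and still above the controls (0.76 ± 0.15, adjusted p = 0.00432, corrected 0.74). *Sgk1*, a kinase induced by corticosteroids, was at 208, 177, 211 and 189 CPM in the controls and 324, 396, 211 and 373 CPM in the niacin-treated nerves, with niacin 4507 inside the control range (0.73 ± 0.17, corrected 0.73). *Nfkbia* rose without overlap (0.64 ± 0.15), and *Cdkn1a*, which is also a FoxO target, fell (-0.52 ± 0.15, corrected adjusted p = 0.0919). Untreated *Mtmr2* KO libraries were at 439, 599, 1239.6 and 407 CPM for *Tsc22d3*, with the highest value in the library labelled 4503. *Cdkn1a* was not called in 3 of the 8 fits that left out 1 library (adjusted p up to 0.0697).

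Stress and growth genes gave mixed counts. None of 25 immediate early genes rose and 8 fell (3 without control 4499 and 5 without control 4498 or niacin 4507), among them *Junb* at 17.2, 18.9, 20.02 and 22.8 CPM in the controls and 7.77, 14.0, 10.2 and 13.5 CPM in the niacin-treated nerves (-0.79 ± 0.17, adjusted p = 0.00631, corrected -0.51) and *Nr4a2* (-0.65 ± 0.12, corrected -0.66). In the integrated stress and unfolded protein response 3 of 21 genes rose, near the 16.3% of all genes, and 6 fell, above their 17.6%. *Sdf2l1*, an endoplasmic reticulum chaperone partner, fell (-0.86 ± 0.13, corrected -0.88) as did *Trib3* (-0.96 ± 0.19) and *Sesn2* (-0.94 ± 0.17), and *Asns*, asparagine synthetase, rose (0.52 ± 0.12, corrected 0.38). Of 18 heat shock chaperone genes 8 rose and 6 fell, against 1 and 1 after the correction, which left *Chordc1* (0.42 ± 0.08) and *Bag3* (-0.67 ± 0.13).

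Of 22 genes of the PI3K, Akt and mTOR core 0 rose and 6 fell, and 1 each way did after the correction. *Rptor*, the raptor subunit of mTORC1, was at 62.7, 59.0, 56.1 and 51.1 CPM in the controls and 34.6, 39.2, 31.8 and 32.0 CPM in the niacin-treated nerves (-0.73 ± 0.09, adjusted p = 0.00170, corrected -0.30). Treated nerves were all lower. The negative regulator *Tsc2* fell too (-0.44 ± 0.10, corrected adjusted p = 0.490). Among amino acid transporters 1 of 18 rose and 7 fell. *Slc7a5*, the large neutral amino acid carrier, was at 127, 134, 115 and 104 CPM in the controls and 53.3, 83.8, 59.4 and 52.1 CPM in the niacin-treated nerves (-0.95 ± 0.15, adjusted p = 0.00250, corrected -0.67), and its heavy chain *Slc3a2* fell with it (-0.67 ± 0.16). *Slc38a4* was the transporter that rose, at 10.8, 11.9, 11.1 and 11.5 CPM in the controls and 19.5, 15.7, 18.1 and 14.6 CPM in the niacin-treated nerves (0.58 ± 0.11, adjusted p = 0.00413, corrected 0.45). It is also an imprinted gene, and of the 18 imprinted growth genes *H19* rose as well (0.71 ± 0.15, corrected 0.90), while *Dlk1* and *Igf2r* fell (-0.73 ± 0.20 and -0.51 ± 0.12) and lost their calls with the correction (adjusted p = 0.0717 and 0.0520). *Dlk1* lost its call without control 4497 (adjusted p = 0.0502).

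**Figure D4:**
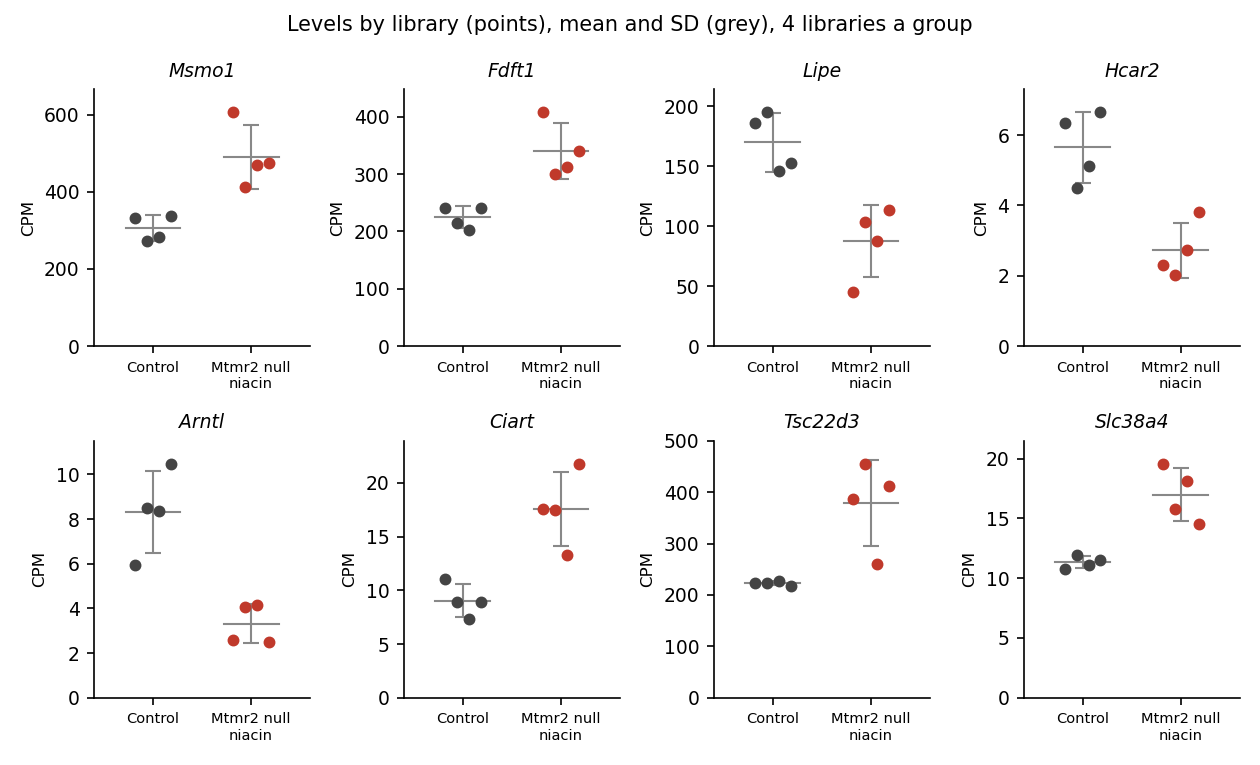
CPM of 8 genes (vertical axes) in the 4 control and 4 niacin-treated *Mtmr2* null libraries, with each point a library and the grey lines the mean and SD. *Msmo1*, *Fdft1*, *Ciart*, *Tsc22d3* and *Slc38a4* are higher in all treated nerves, and *Lipe*, *Hcar2* and *Arntl* lower.

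Lysosomal genes went both ways, with 7 of 26 higher and 11 lower (4 and 8 after the correction). The protease *Ctsb* rose (0.44 ± 0.11, corrected 0.55) and the proton pump subunit *Atp6v0a1*, at 113, 106, 98.4 and 90.7 CPM in the controls and 55.7, 67.3, 54.5 and 54.5 CPM in the niacin-treated nerves, fell without overlap (-0.81 ± 0.10, adjusted p = 0.00158, corrected -0.81), as did progranulin (*Grn*, -0.65 ± 0.11). In the list of MTMR2 partners and phosphoinositide turnover 4 of 26 tested genes were higher and 8 lower (1 and 4 after the correction). The list holds *Mtmr2* itself, the inactivated gene, which is counted among those that fell in both fits. *Fig4* and *Vac14*, which act in 1 complex on the lipid that MTMR2 dephosphorylates, moved in opposite directions. *Fig4* was at 32.3, 31.9, 33.7 and 32.8 CPM in the controls and 43.0, 36.8, 41.7 and 41.1 CPM in the niacin-treated nerves (0.32 ± 0.08, adjusted p = 0.00930, corrected 0.34), and *Vac14* was at 33.0, 31.0, 29.0 and 27.0 CPM in the controls and 20.4, 20.9, 19.8 and 18.7 CPM in the niacin-treated nerves (-0.59 ± 0.09, adjusted p = 0.00218, corrected -0.25). The inactive partner *Sbf2* was at 0.20 ± 0.12 (adjusted p = 0.222). Of the remaining lists, 4 of 25 Hox genes fell, a share near the 17.6% of all genes, led by *Hoxb9* (-1.09 ± 0.22), and none rose. In the cell cycle list 3 of 31 genes rose, a share below the 16.3% of all genes. With 1 library left out, 1 to 9 rose (1 without control 4498 or 4499 or niacin 4505 or 4507, 5 without control 4497 and 9 without niacin 4506). *Fig4* lost its call without niacin 4507 (adjusted p = 0.0541).

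Genes singled out in the untreated *Mtmr2* KO were set beside the treated nerves. The comparisons share libraries, and the study named these genes from the same untreated KO libraries. Their values are therefore no independent support for a return towards control. On the 8 libraries of each pair, edgeR called 0 of 16896 genes between untreated KO and control (2349 at an unadjusted p under 0.05, 458 called by DESeq2, 46 by edgeR with all 12 libraries). Between treated and untreated KO it called 0 of 16411 (2249 at an unadjusted p under 0.05, 433 by DESeq2, 246 by edgeR with all 12 libraries). *Mt1*, a metallothionein, was at 213, 335, 215 and 218 CPM in the controls, 690.4, 1956, 1431 and 353 CPM in untreated KO and 166, 206, 122 and 231 CPM in treated KO nerves. Untreated KO libraries were all above both other groups, and treated nerves overlapped the controls (-0.43 ± 0.20 over control, adjusted p = 0.118, and -2.59 over untreated KO, adjusted p = 0.174). *Dgat2*, which completes triglyceride synthesis, was at 253, 360.3, 227 and 183 CPM in the controls, 117, 37.4, 30.8 and 41.8 CPM in untreated and 77.8, 215, 137 and 211 CPM in treated KO nerves. Its untreated libraries were all below the controls (-2.19, adjusted p = 0.109), and the treated nerves again overlapped the controls (-0.67 ± 0.29, adjusted p = 0.0960).

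The lipid genes *Scd1*, *Lpl* and *Pparg* had log2 fold changes of -1.72, -1.07 and -1.22 in untreated KO over control and -0.26, 0.09 and 0.25 in treated KO over control. None of these passed the test (adjusted p = 0.182, 0.233 and 0.243, and 0.559, 0.713 and 0.290). *Pparg*, the master factor of adipocytes, spanned 36.3 to 45.9 CPM in the controls, 8.37 to 36.2 CPM in untreated and 34.5 to 68.2 CPM in treated KO nerves. *Srebf1* differed less between the KO groups, at -0.78 and -0.59 over control. The imprinted *Nnat*, neuronatin, was at 12.3, 31.6, 42.4 and 19.3 CPM in treated nerves and 39.9, 42.0, 52.1 and 99.8 CPM in controls, a fall with overlapping groups (-1.15 ± 0.37, adjusted p = 0.0327, corrected adjusted p = 0.0598). Untreated KO libraries were at 8.04 to 19.3 CPM. *P2rx1*, an ATP-gated channel, also fell with overlap (-1.99 ± 0.64, 0.593 to 6.86 CPM in the controls and 0.448 to 1.81 CPM in the niacin-treated nerves, corrected adjusted p = 0.0671). The neutrophil gene *S100a9* was too low to be tested in the treated comparison, at 0.0997, 0.176, 0.233 and 4.48 CPM in treated nerves and 0.185, 0.146, 0.111 and 0.525 CPM in controls, with niacin 4508 the highest, and untreated KO libraries were at 7.62, 6.49, 2.05 and 0.148 CPM. *Nnat* and *P2rx1* were not called in 4 and 5 of the 8 fits that left out 1 library (adjusted p up to 0.0962 and 0.0960).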

How the data were processed

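Polyadenylated RNA of sciatic nerves was sequenced by Genewiz on a HiSeq instrument as paired reads of 150 bases, converted with CASAVA 1.9 and mapped with STAR to GRCm38, per the labels and the study's methods. The authors deposited raw counts per gene for 43432 genes in 12 libraries, 42615 of them with a symbol, and 26 symbols turned into dates were repaired. The sources used here name neither the counter nor the annotation release nor the strand setting. Columns with the study's own comparisons (log2 fold changes, SE, Wald scores, p and adjusted p) were not used.

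Libraries were grouped by their labels. The main test was edgeR 4.0.16 in R 4.3.3, with TMM scaling, the default filter on low counts and the quasi-likelihood test on the 8 control and niacin-treated libraries, with calls at a Benjamini-Hochberg adjusted p under 0.05. Each library was 1 mouse, so p-values measure the spread between mice. *Xist* was high in 1 library of each group, and no pair of libraries was identical. CPM were computed from the deposited counts, with the untreated libraries on the same scale. For the correction, natural splines with 5 degrees of freedom were fitted in each library to the base composition and the log2 length of a gene's longest GENCODE M21 transcript, and entered edgeR as an offset for 16402 genes. Other alternatives were DESeq2 1.42.0 and its size factors, limma-voom (limma 3.58.1) with sample weights, no filter or at least 10 counts in every library, all 12 libraries, *Xist* as a covariate, counts thinned to the lowest total, and 1 library left out at a time. Leaving out niacin 4506 and 4507 was added after seeing the data. Promoter sequences were taken from RefSeq for GRCm38.p6.

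The members and the 51 gene lists (968 entries, 2 without a match) were chosen with earlier results of these data known. The genes named are *Mtmr2*, genes named by the study or on the proposed route of niacin, the 10 non-overlapping called genes with a mean of at least 1 CPM and the smallest p in each direction, the 5 of these genes with the largest difference each way, and, of each list, up to 3 called members with the largest difference each way and the 3 with the highest level. Some genes given by this rule are not reported here.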

Additional observations from a re-analysis of the deposited data

Results flagged for a closer look

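In each group of 4 libraries the gap between the highest or lowest library and the nearest of the others was divided by the range of the group, and a ratio over 0.829 set a library apart. Of 414 groups tested (the totals, the gradients, the marker sums and the named genes), 23 passed that value, or 5.56%, and chance alone sets apart about 1 group in 20.

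Niacin library 4508 stood apart in sensory neuron and neutrophil transcripts. Its summed sensory neuron markers were at 155 CPM against 124 to 129 CPM in the other niacin libraries (ratio 0.847), with *Nefm* at 19.3 against 14.5 to 15.0 CPM (0.878) and *Prph* at 21.4 against 16.2 to 16.9 CPM (0.868). Its summed neutrophil markers were at 21.7 CPM against 5.42 to 5.95 CPM (0.968), above the controls as well, and *Ucp1* was at 0.4930 against 0 to 0.0498 CPM (0.899). Niacin 4506 had the highest total of the treated group (ratio 0.895) and higher levels of *Atp6v0a1* (67.3 against 54.5 to 55.7 CPM, 0.909), *Cnnm3* (26.8 against 20.5 to 21.6 CPM, 0.829 after rounding), *Cdkn1b* (334 against 264 to 275 CPM, 0.838) and *Cntnap2* (0.970 against 0.717 to 0.747 CPM, 0.880). For *Atp6v0a1*, *Cnnm3* and *Cdkn1b* it was the treated nerve nearest to the controls. Niacin 4507 had more *Myh1* (ratio 0.904) and *Sox9* (25.1 against 17.8 to 19 CPM, 0.834), and niacin 4505 less *Plin4* (58.7 against 177 to 179 CPM, 0.984) and *Srebf1* (91.3 against 132 to 139 CPM, 0.848).

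Among the controls, library 4500 was apart in *Calca* (ratio 0.945), *Lox* (707 against 886 to 921 CPM, 0.833), *Rpl37* (128 against 88.3 to 92.9 CPM, 0.882) and *Sox10* (0.865), in each case towards the treated nerves. Control 4497 was high in *Olfm2* (3.15 against 2.44 to 2.49 CPM, 0.939). Control 4498 was high in *Mt1* (335 against 213 to 218 CPM, 0.962) and low in *Id2* (16.2 against 17.5 to 17.6 CPM, 0.898). Control 4499 was low in the summed skeletal muscle markers (ratio 0.843) and in *Fabp4* (709 against 943 to 990.2 CPM, 0.830).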

How the results depend on the processing

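Of the counts of calls and the *Mtmr2* difference, 75 recomputed values kept direction and stayed within 1.5 times or on the same side of the threshold, and 20 did not. With all 12 libraries in 1 edgeR fit, 0 genes were called higher and 0 lower, and the log2 fold change of *Mtmr2* was -1.01 with an adjusted p of 0.0833. The cause was not tested. With the correction for GC content and length, 1371 genes were called higher and 1270 lower, 73 of them at least 2-fold lower. Without niacin libraries 4506 and 4507, an alternative chosen after seeing the data, 365 genes fell at least 2-fold, and with the correction as well 788 rose, 667 fell and 88 rose at least 2-fold. The count that rose at least 2-fold was 288 with limma-voom and 255 without a filter on low counts, and 108 when every library needed at least 10 counts. With 1 library left out, 1569 to 2700 genes rose and 126 to 285 fell at least 2-fold.

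Of 171 named genes that were called, 116 were called after the correction, 0 in the fit of all 12 libraries and 133 in every fit with 1 library left out. Changes of sign fell on genes that were not called, apart from *Cd9* and *Trim63*. Log2 fold changes turned to -0.0087 (*Adam17*), 0.10 (*Col3a1*), -0.033 (*Lpl*), -0.038 (*Pmp22*), 0.085 (*Prx*) and -0.23 (*Ugt8a*) with the correction. With the correction and without niacin 4506 and 4507 they turned to -0.0062 (*Cd9*), 0.20 (*Col3a1*), -0.057 (*Fabp4*), -0.19 (*Lpl*), 0.16 (*Prx*), -0.33 (*Trim63*) and -0.21 (*Ugt8a*), and without these libraries alone to -0.061 (*Lpl*) and -0.34 (*Trim63*). With limma-voom they turned to -0.043 (*Adam17*), -0.052 (*Uchl1*) and -0.089 (*Ugt8a*), and without a filter to -0.013, -0.025 and -0.034. Over the fits with 1 library left out, *Adam17* ran from -0.045 to 0.072, *Col3a1* from -0.43 to 0.049, *Fabp4* from -0.0074 to 0.39, *Lpl* from -0.0047 to 0.23, *Pmp22* from -0.0043 to 0.16, *Scd1* from -0.56 to 0.036, *Uchl1* from -0.055 to 0.11 and *Ugt8a* from -0.12 to 0.092.

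List medians changed sign for the PI3K, Akt and mTOR core (0.050 with the correction, 0.062 also without niacin 4506 and 4507), elastic fibre genes (0.014 and 0.061), myelinating Schwann cell markers (0.017 and 0.14), the stress and unfolded protein response (0.025 with both), glycolysis (-0.10 without these libraries) and glucocorticoid genes (-0.0013 with limma-voom). Leaving out 1 library gave -0.077 to 0.13 for glucocorticoid genes and -0.053 to 0.049 for the stress response. Depth limits genes near 1 CPM or below most. No paired analysis was possible because the replicate numbers are unique to each library.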

Other observations

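Targets of FoxO factors and genes of protein breakdown leaned lower in the niacin-treated nerves. Of 18 tested genes 1 rose and 8 fell (median log2 fold change -0.37), against 1 and 3 after the correction for GC content and length. The count that fell was 4 without control 4499 and 5 without niacin 4507. *Irs2*, an adaptor of the insulin receptor, was at 25.4, 29.1, 25.6 and 16.3 CPM in the controls and 10.2, 15.3, 15.3 and 12.5 CPM in the niacin-treated nerves. Every treated nerve was below every control (-0.85 ± 0.18, adjusted p = 0.00562), and the corrected value of -0.42 was not called (adjusted p = 0.0627). *Gadd45a*, a growth arrest gene, fell with and without the correction (-0.65 ± 0.18 and -0.89), and *Cdkn1b*, an inhibitor of cyclin-dependent kinases, fell as well (-0.38 ± 0.10, corrected -0.49). The gene that rose was *Trim63*, a ubiquitin ligase of muscle, at 0.334, 0.402, 0.333 and 0.455 CPM in the controls and 0.249, 3.97, 2.56 and 0.359 CPM in the niacin-treated nerves (2.22 ± 0.73, corrected adjusted p = 0.0605). It was high in the 2 libraries rich in muscle transcripts alone, and without them its log2 fold change was -0.34 (adjusted p = 0.667). *Gadd45a* lost its call without control 4498 or 4499 (adjusted p = 0.0559 to 0.0611). *Cdkn1b* was not called in 3 of the 8 fits that left out 1 library (adjusted p up to 0.0660). *Trim63* was not called in 5 of the 7 such fits in which it was tested (adjusted p up to 0.133).

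Of 20 regulators of actin and myosin 2 rose and 5 fell, with 1 and 1 left after the correction, and the count that rose was 0 without control 4498 or 4499 or niacin 4505 or 4507 and 1 without control 4497 or niacin 4506. *Wasl*, the N-WASP protein that nucleates branched actin, was at 73.5, 70.5, 67.8 and 70.4 CPM in the controls and 44.2, 53.1, 48.1 and 49.3 CPM in the niacin-treated nerves, without overlap (-0.54 ± 0.08, adjusted p = 0.00222, corrected -0.63). *Cfl1*, cofilin, which severs actin filaments, was the gene that stayed higher, at 485 to 635 CPM in the controls and 680.5 to 916 CPM in the niacin-treated nerves (0.45 ± 0.13, corrected 0.47). Non-muscle myosin *Myh9* fell (-0.86 ± 0.18) and was not called after the correction (adjusted p = 0.0756). Among 12 oxysterol-binding proteins, which carry lipids between membranes, 5 fell (3 without control 4497), and 2 were lower after the correction. *Osbpl10* was among them, at 4.68 to 6.64 CPM in the controls and 3.54 to 4.23 CPM in the niacin-treated nerves (-0.63 ± 0.15, corrected -0.51). *Cfl1* was not called in 4 of the 8 fits that left out 1 library (adjusted p up to 0.0792).

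In triglyceride synthesis 0 of 16 genes rose and 5 fell, and besides *Pck1* the call with the smallest p was for *Agpat1*, an acyltransferase of phosphatidic acid synthesis, at 117, 98.7, 118 and 106 CPM in the controls and 76.6, 78.8, 60.2 and 55.0 CPM in the niacin-treated nerves (-0.70 ± 0.12, corrected adjusted p = 0.0557). The count that fell was 2 without control 4497 or 4498 or niacin 4507 and 3 without control 4499 or niacin 4505. Red blood cell markers had no call among 7 tested by edgeR, limma-voom or DESeq2 and none at an unadjusted p under 0.05 in edgeR, with overlapping sums of 322 to 1139.6 CPM in the controls and 281 to 1137 CPM in the treated nerves.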
